A study of Saccharomyces cerevisiae with 18 samples.

Results

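The genes described here encode the nuclear subunits of the mitochondrial respiratory chain and of the ATP synthase in budding yeast (Saccharomyces cerevisiae). They were chosen by name: 35 of the 7126 features of the RNA tables, namely 4 SDH genes of succinate dehydrogenase (complex II), 9 genes of the cytochrome bc complex (complex III: COR1, QCR2, QCR6 to QCR10, CYT1, RIP1), CYC1 for cytochrome c, 9 COX genes of cytochrome c oxidase (complex IV) and 12 ATP genes of the ATP synthase (complex V). The rule reads gene names and no measured value, but the group was picked with earlier results of these data known.

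In mitochondria, complex II and NADH dehydrogenases pass electrons to coenzyme Q, complex III hands them to cytochrome c, and complex IV passes them to oxygen. Complexes III and IV pump protons, and the ATP synthase uses the proton gradient to make ATP. The core of complexes III, IV and V contains subunits encoded by mitochondrial DNA, while the genes described here lie in the nucleus. In yeast they are known for repression by glucose, for activation by the Hap2/3/4/5 complex and, for some, by the heme-dependent factor Hap1. The COX5B and CYC7 isoforms are known as the counterparts of COX5A and CYC1 that are made when oxygen or heme is low.

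The study compared yeast lacking the HMG-box protein Hmo1 or carrying top2-1, a temperature-sensitive allele of DNA topoisomerase II. RNA was sequenced in 5 libraries: wild type from S phase at 28 °C (arrested in G1 and released for 15 min), and wild type, hmo1Δ, top2-1 and hmo1Δ;top2-1 log-phase cells moved from 28 °C to 37 °C for 60 min. Histone H3 was mapped by chromatin immunoprecipitation (ChIP) after 2 h 15 min at 37 °C in 4 libraries: wild type and the double topoisomerase mutant top2-1;top1Δ, with or without plasmid-borne TopA, the topoisomerase I of Escherichia coli. Flag-tagged Hmo1 was immunoprecipitated in 2 libraries, and joined DNA segments bound by Top2 were mapped in 1 ChIA-PET library (chromatin interaction analysis by paired-end tags) of wild-type cells at 28 °C. Every group held 1 library, so no replicate error exists, and no test between conditions was run. Intervals given below cover counting error only, and in bulk RNA a change in the share of cells and in RNA per cell cannot be told apart. Some labels disagree. The growth protocol of the 28 °C wild type describes the shift to 37 °C, and the protocol of the ChIA-PET library describes G1 arrest and release although its label says log-phase cells. The Hmo1 library with the control plasmid is titled as top2-1 and top1 mutant, but its genotype label and the design give Hmo1-tagged cells without these mutations. That genotype was followed. The Hmo1 library with TopA came from Hmo1-tagged top2-1;top1Δ cells, so the Hmo1 libraries differ in both genotype and plasmid. Cells of both Hmo1 libraries were kept at 37 °C for 2 h 15 min.

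The RNA libraries held 4752471 to 14770300 estimated counts; counts of a gene are printed unscaled, and log2 ratios are scaled for depth by TMM, edgeR's trimmed mean of log ratios. HMO1 had 0 counts in both hmo1Δ libraries and 1152 to 1386 in the others. TRP1, a tryptophan synthesis gene, also had 0 counts in both and 152 to 217 in the others, so RNA of a second gene was missing there. The 28 °C library stood apart: the levels of nuclear coding genes in TPM, a unit that corrects for gene length and library size, summed to 295700 there against 947300 to 954800 at 37 °C. COX1, a mitochondrially encoded subunit of complex IV, had 23878 counts there against 25 to 52 in the other libraries. The fragment correction also differed: RSEM's effective length was 95.2 bp shorter than the gene at 28 °C, and 137 bp (wild type), 131 bp (hmo1Δ), 135 bp (top2-1) and 121 bp (hmo1Δ;top2-1) shorter at 37 °C. The members are short genes, with a median coding length of 456 bp, so their count ratios can move with this difference; TPM carries the correction.

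All 35 members passed the filter of a mean of 20 counts, with means from 79.0 counts for QCR10 to 7425 for ATP2. Their summed level was 8416 TPM in wild type at 37 °C, 9561 in hmo1Δ, 9154 in top2-1 and 9497 in hmo1Δ;top2-1. These sums were 0.888%, 1.00%, 0.966% and 1.00% of the level of all nuclear coding genes. At 28 °C the sum was 3451 TPM, which was 1.17% of the level of coding genes in that library.

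Subunits of 1 complex were not at equal RNA levels. In complex III the lowest and highest genes were the same in every library: QCR10, a small supernumerary subunit, had 24.2, 50.4, 67.5, 48.1 and 84.5 TPM in wild type at 28 °C, wild type at 37 °C, hmo1Δ, top2-1 and hmo1Δ;top2-1. QCR6, the acidic hinge protein, had 278, 560, 617, 620 and 933 TPM in the same order. The ratio of QCR6 to QCR10 was between 9.14 and 12.9. QCR10 had only 31 to 136 counts, so this ratio is imprecise. In complex IV at 37 °C the highest level was at most 5.76 times the lowest, and in complex V also at most 5.76 times. The highest gene of these complexes was not constant. In complex IV it was COX5A in both wild-type libraries, COX5B in both hmo1Δ libraries and COX13 in top2-1. In complex V it was ATP2 at 28 °C, ATP14 in wild type at 37 °C and hmo1Δ, and ATP15 in both top2-1 libraries. ATP15 is 189 bp long and had 304 and 461 counts in top2-1 and hmo1Δ;top2-1. RSEM's effective length is 135 and 121 bp shorter than the gene there, so its TPM depends strongly on that correction.

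**Figure D1:**
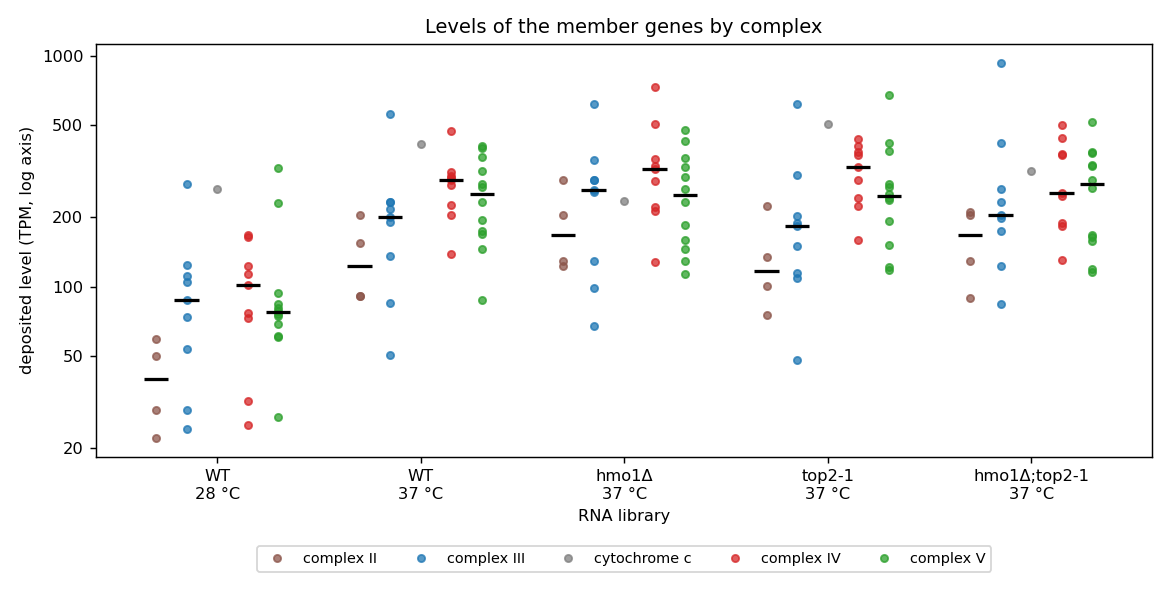
Deposited level (TPM, log axis) of each of the 35 member genes (points, coloured by complex) in the 5 RNA libraries, with the median of each complex as a bar. Points of the 28 °C library lie lower, and all coding genes sum to 295700 TPM there against 947300 or more at 37 °C; QCR6 is the highest complex III point in each library, reaching 933 TPM in hmo1Δ;top2-1.

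Without Hmo1, most members were higher than in wild type. In hmo1Δ over wild type at 37 °C the median log2 ratio of the members was 0.51, against 0.00 for all 6085 genes passing the filter. A log2 ratio above 0 was seen for 32 of 35 members (48.9% of all genes), and 13 members were at least 1.5-fold higher (16.4% of all genes). No member was 1.5-fold lower (14.9% of all genes), and 2, COX5B and SDH2, were at least 2-fold higher (7.08% of all genes), with none 2-fold lower (5.26%). The 13 were SDH1, SDH2 and SDH4, QCR2, QCR7, QCR10, CYT1 and RIP1, COX5B and COX6, and ATP1, ATP17 and ATP20. With library totals in place of TMM scaling the all-gene median fell by 0.25 and with TPM it fell by 0.31, and 5 members then passed 1.5-fold in each. The members' median stayed 0.51 and 0.50 above that of all genes. Of all genes, 999 were 1.5-fold higher and 907 lower with TMM, 597 and 1625 with library totals, and 506 and 1771 with TPM, so directions below are relative to the median gene. COX9 and ATP15 lay on the other side of the median gene in TPM.

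A second pair of libraries that differs by HMO1 deletion, hmo1Δ;top2-1 over top2-1, shares no library with the first. Its members' median was 0.36 (all genes 0.00), 26 of 35 were above 0 (50.1% of all genes), 10 were 1.5-fold or more above top2-1 (11.4%) and 1, COX13, was 1.5-fold or more below it (10.3%). By 2-fold, QCR10 alone was higher (3.66%) and none lower (3.76%). Above 0 in both pairs were 26 members (36.1% of all genes), and 6 were at least 1.5-fold higher in both (6.82% of all genes): SDH2, QCR7, QCR10, COX5B, COX6 and ATP17. With TPM aligned to the same all-gene median, 3 members were 1.5-fold higher in both pairs. Under that setting 964 of all 6085 genes were 1.5-fold higher in the first pair and 626 in the second. The share of all genes higher in both is not given for it. CYC1, ATP7 and ATP18 were below 0 in both pairs (36.4% of all genes), and no member was 1.5-fold lower in both (6.36%). COX4, COX9, COX12, COX13, ATP15 and ATP16 were above 0 in the first pair and below 0 in the second (12.8% of all genes), and none the other way round (13.8%). Over all genes the second pair had 695 higher and 629 lower by 1.5-fold with TMM, 510 and 843 with library totals, and 430 and 911 with TPM. COX7 and ATP14 changed sides of the median gene in the second pair when TPM was used.

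**Figure D2:**
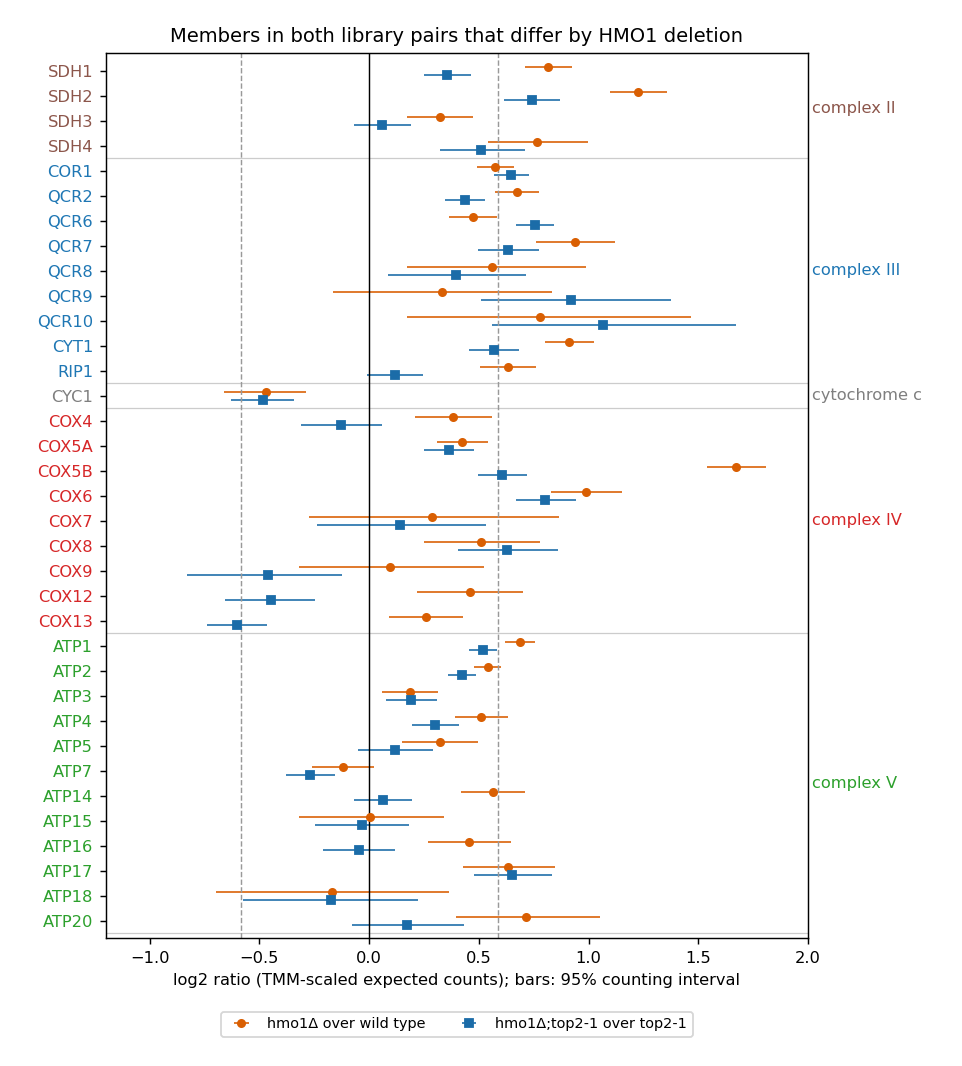
Log2 ratio of TMM-scaled expected counts of each member in hmo1Δ over wild type (circles) and hmo1Δ;top2-1 over top2-1 (squares), both at 37 °C, with bars for the 95% counting interval; dashed lines mark 1.5-fold. All 4 complex II and all 9 complex III genes lie above 0 in both pairs, CYC1 lies near -0.47 and -0.48, and COX9, COX12 and COX13 lie above 0 in the first pair and below 0 in the second.

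All 4 complex II genes had a ratio above 0 in both pairs, with medians of 0.79 and 0.43; 3 passed 1.5-fold in the first pair and 1, SDH2, in the second. SDH2, the iron-sulfur subunit (YLL041C, chromosome XII, 53131 to 53931, R64), had 155 TPM in wild type, 290 in hmo1Δ, 134 in top2-1 and 205 in hmo1Δ;top2-1 at 37 °C, and 50.1 at 28 °C. Both libraries without Hmo1 were the highest, and the counts behind them were 1894 and 1796 against 644 and 691 with Hmo1 at 37 °C. Its log2 ratio was 1.22 (95% counting interval 1.10 to 1.36) in the first pair and 0.74 (0.62 to 0.87) in the second. SDH1, the flavoprotein that oxidises succinate, followed with 0.82 and 0.36. SDH3 and SDH4, which anchor the complex in the membrane, had 0.32 and 0.76 in the first pair and 0.06 and 0.51 in the second.

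Complex III was the largest group above 0 in both pairs, with 9 of 9 genes and a median of 0.63 in each. QCR7, which binds the mitochondrially encoded cytochrome b (YDR529C, chromosome IV, 1496165 to 1496548), had 362 counts in wild type, 872 in hmo1Δ, 589 in top2-1 and 1420 in hmo1Δ;top2-1 at 37 °C, and 1226 at 28 °C. The library without Hmo1 was the higher one within each pair. Its log2 ratio was 0.94 (0.76 to 1.12) and 0.63 (0.50 to 0.78). QCR10 (YHR001W-A, chromosome VIII, 107826 to 108122) had only 31, 68, 37 and 123 counts in the 37 °C libraries in the same order and 136 at 28 °C, so its ratios of 0.78 (0.17 to 1.47) and 1.06 (0.56 to 1.67) are imprecise. The heme protein CYT1 had 0.91 and 0.57, the Rieske iron-sulfur protein RIP1 0.63 and 0.12, and the core proteins COR1 and QCR2 0.57 and 0.67 in the first pair and 0.65 and 0.44 in the second. The remaining subunits QCR6, QCR8 and QCR9 had 0.47, 0.56 and 0.33 in the first pair and 0.76, 0.39 and 0.92 in the second.

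For cytochrome c, CYC1 was lower without Hmo1, while its isoform CYC7, described below, was higher in hmo1Δ. CYC1, the main cytochrome c of aerobic cells (YJR048W, chromosome X, 526335 to 526664), had 502 counts in wild type, 454 in hmo1Δ, 766 in top2-1 and 850 in hmo1Δ;top2-1 at 37 °C, and 2503 at 28 °C. Scaled for depth, both libraries without Hmo1 were lower than their partners, by a log2 ratio of -0.47 (-0.66 to -0.29) and -0.48 (-0.63 to -0.34). It was the lowest of the 35 members in the first pair. Its divergent upstream neighbour ANB1, 953 bp away and picked out after its values were seen, had ratios of 1.04 and 1.55.

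Complex IV was mixed. In the first pair 9 of 9 genes were above 0, with a median of 0.42, and in the second 5 of 9 with a median of 0.14; with TPM the second median lay 0.12 below that of all genes. COX6 (YHR051W, chromosome VIII, 209705 to 210151), a structural subunit, had 439 counts in wild type, 1094 in hmo1Δ, 582 in top2-1 and 1579 in hmo1Δ;top2-1 at 37 °C, and 1093 at 28 °C. Its log2 ratios were 0.99 (0.83 to 1.15) and 0.80 (0.67 to 0.94), and the libraries without Hmo1 were higher in both pairs. COX12 had 227, 392, 368 and 418 counts in the same 37 °C order and 718 at 28 °C, which gave 0.46 (0.22 to 0.70) in the first pair and -0.45 (-0.66 to -0.25) in the second. COX13 had 480, 722, 859 and 878 counts and 1951 at 28 °C, which gave 0.26 (0.09 to 0.43) and -0.60 (-0.74 to -0.47). For both of these small subunits the intervals lay on opposite sides of 0. COX5A and COX8 had 0.42 and 0.51 in the first pair and 0.36 and 0.63 in the second. COX4, COX7 and COX9 had 0.38, 0.28 and 0.10 in the first pair and -0.13, 0.14 and -0.46 in the second.

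The ATP synthase had 10 of 12 genes above 0 in the first pair, with a median of 0.48, and 8 of 12 in the second, with a median of 0.14. ATP1 and the catalytic subunit ATP2 were deeply covered, with 2613 and 3205 counts in wild type. They had 0.69 (0.62 to 0.76) and 0.54 (0.48 to 0.60) in the first pair and 0.52 (0.45 to 0.58) and 0.42 (0.36 to 0.49) in the second. ATP17 (YDR377W, chromosome IV, 1228611 to 1228916), a membrane subunit, had 287 counts in wild type, 560 in hmo1Δ, 368 in top2-1 and 900 in hmo1Δ;top2-1 at 37 °C, and 517 at 28 °C. The libraries without Hmo1 were higher in each pair, with log2 ratios of 0.63 (0.43 to 0.85) and 0.65 (0.48 to 0.83). The central stalk subunits ATP3, ATP15 and ATP16 had 0.19, 0.00 and 0.45 in the first pair and 0.19, -0.03 and -0.05 in the second. Of the peripheral stalk, ATP4, ATP5 and ATP14 had 0.51, 0.32 and 0.56 in the first pair, while ATP7 had -0.12 (-0.26 to 0.02); in the second they had 0.30, 0.12 and 0.06, and ATP7 had -0.27 (-0.38 to -0.16). The small membrane subunits ATP18 and ATP20 had -0.17 and 0.71 in the first pair and -0.17 and 0.17 in the second.

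Of the 35 members, the alternative isoform COX5B had the highest ratio in hmo1Δ over wild type. COX5B (YIL111W, chromosome IX, 155222 to 155765) had 289 TPM in wild type, 733 in hmo1Δ, 371 in top2-1 and 504 in hmo1Δ;top2-1 at 37 °C, and 25.05 at 28 °C. It was highest in hmo1Δ and lowest at 28 °C. COX5A had 474, 506, 382 and 439 TPM in the same 37 °C order and 167 at 28 °C, a narrower range. COX5B therefore made up 37.9% of the summed COX5 level in wild type, 59.2% in hmo1Δ, 49.2% in top2-1 and 53.5% in hmo1Δ;top2-1, against 13.0% at 28 °C. On counts, the share was 37.5% (exact 95% binomial interval 35.1% to 39.9%) in wild type and 58.7% (57.2% to 60.3%) in hmo1Δ. It was 48.8% (46.5% to 51.0%) in top2-1 and 53.0% (51.5% to 54.5%) in hmo1Δ;top2-1. These intervals cover counting error within 1 library each, so they do not measure a difference between genotypes. The log2 ratio of COX5B was 1.67 (1.54 to 1.81) in the first pair and 0.61 (0.50 to 0.72) in the second.

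CYC7, the other cytochrome c isoform and not a member, had 159 TPM in wild type, 567 in hmo1Δ, 249 in top2-1 and 239 in hmo1Δ;top2-1 at 37 °C, and 7.63 at 28 °C. Its share of the summed cytochrome c level was 27.8% in wild type, 70.8% in hmo1Δ, 32.9% in top2-1, 43.0% in hmo1Δ;top2-1 and 2.81% at 28 °C. In hmo1Δ it was the more abundant isoform, and in the other 4 libraries CYC1 was. The log2 ratio of CYC7 was 2.17 in the first pair and 0.13 in the second. The paralogs of complex II genes were also higher in hmo1Δ than in wild type. SDH9, the paralog of SDH1, had 2.14, SHH3 of SDH3 had 1.01 and SHH4 of SDH4 had 1.73, with 0.20, 0.19 and 0.48 in the second pair. SDH9 held 7.57% of the summed SDH1 and SDH9 level in wild type and 17.2% in hmo1Δ, 14.2% in top2-1 and 13.0% in hmo1Δ;top2-1. RSEM divides reads that fit both copies of a pair, so each split is an estimate.

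**Figure D3:**
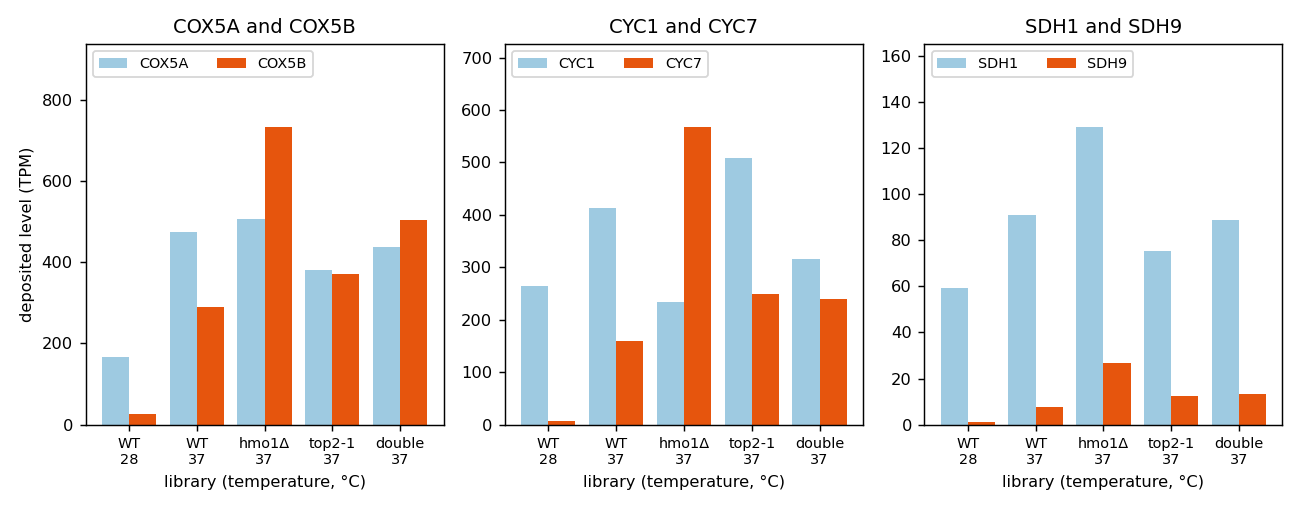
Deposited level (TPM, linear axes from 0) of COX5A and COX5B, CYC1 and CYC7, and SDH1 and SDH9 in the 5 RNA libraries (double is hmo1Δ;top2-1). The bar of COX5B passes that of COX5A in both hmo1Δ libraries, with 733 against 506 TPM in hmo1Δ, and that of CYC7 passes CYC1 in hmo1Δ, with 567 against 234 TPM.

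In top2-1 over wild type at 37 °C, 2 of the members were at least 1.5-fold higher (5.87% of all genes), none was 1.5-fold lower (3.71%), none was 2-fold higher (1.54%) or lower (0.838%), 21 were above 0 (50.4%), and the median was 0.09 (all genes 0.00). The higher ones were the ATP synthase subunit ATP15 (YPL271W, chromosome XVI, 30079 to 30267) and COX7 (YMR256C, chromosome XIII, 778945 to 779127), both among the shortest members at 189 and 183 bp. ATP15 had 140 counts in wild type, 177 in hmo1Δ, 304 in top2-1 and 461 in hmo1Δ;top2-1, and 232 at 28 °C. Scaled for depth, both top2-1 libraries were higher, with log2 ratios of 0.84 (0.56 to 1.15) over wild type and 0.80 (0.55 to 1.06) for hmo1Δ;top2-1 over hmo1Δ. COX7 had 45, 69, 91 and 156 counts in that order and 114 at 28 °C, and ratios of 0.74 (0.22 to 1.30) and 0.60 (0.18 to 1.03). These pairs share no library, and 1.33% of all genes were 1.5-fold higher in both. No member was 1.5-fold lower in both (0.592%).

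In hmo1Δ;top2-1 over hmo1Δ the members' median was -0.14 (all genes 0.00), 12 were above 0 (49.9% of all genes), 2 were 1.5-fold higher (7.26%) and 6 were 1.5-fold lower (7.92%). None was 2-fold higher (1.69%) or 2-fold lower (2.47%). Over all genes 442 were 1.5-fold higher and 482 lower with TMM, 866 and 278 with library totals, and 676 and 285 with TPM. The 6 were CYT1, RIP1, COX4, COX5B, SDH1 and SDH2, with ratios from -0.83 for COX4 to -0.65 for SDH2. Below 0 in both top2-1 pairs were 12 members (27.0% of all genes): SDH1, SDH2, COR1, QCR2, CYT1, RIP1, COX4, COX5A, ATP1, ATP2, ATP3 and ATP5. Above 0 in both were 10 (28.0%): QCR6, QCR7, QCR8, CYC1, COX7, COX8, ATP7, ATP15, ATP17 and ATP18. Another 11 were above 0 over wild type and below 0 over hmo1Δ (22.2%), and QCR9 and QCR10 the reverse (21.6%). COX8 lay on the other side of the median gene over wild type in TPM. COX5B, 1 of the 11, had 0.40 (0.24 to 0.55) in top2-1 over wild type and -0.67 (-0.75 to -0.58) in hmo1Δ;top2-1 over hmo1Δ.

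Gene length moved with the top2-1 ratios. The 21 members of up to 500 bp had a median of 0.33 in top2-1 over wild type with 17 above 0, and the 14 longer members had -0.17 with 4 above 0. All coding genes did the same with a smaller range: 0.30 for genes up to 300 bp, 0.14 for 300 to 500 bp, 0.08 for 500 to 800 bp, 0.02 for 800 to 1500 bp and -0.08 for longer ones. The effective lengths of these libraries differ by less than 2 bp, and with TPM the members up to 500 bp had a median 0.28 above and the longer ones 0.18 below that of all genes. In hmo1Δ over wild type the medians were 0.46 for the 21 shorter and 0.60 for the 14 longer members, against 0.07 and -0.02 for all coding genes of these lengths. The part of gene length in the top2-1 ratios was not tested.

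**Figure D4:**
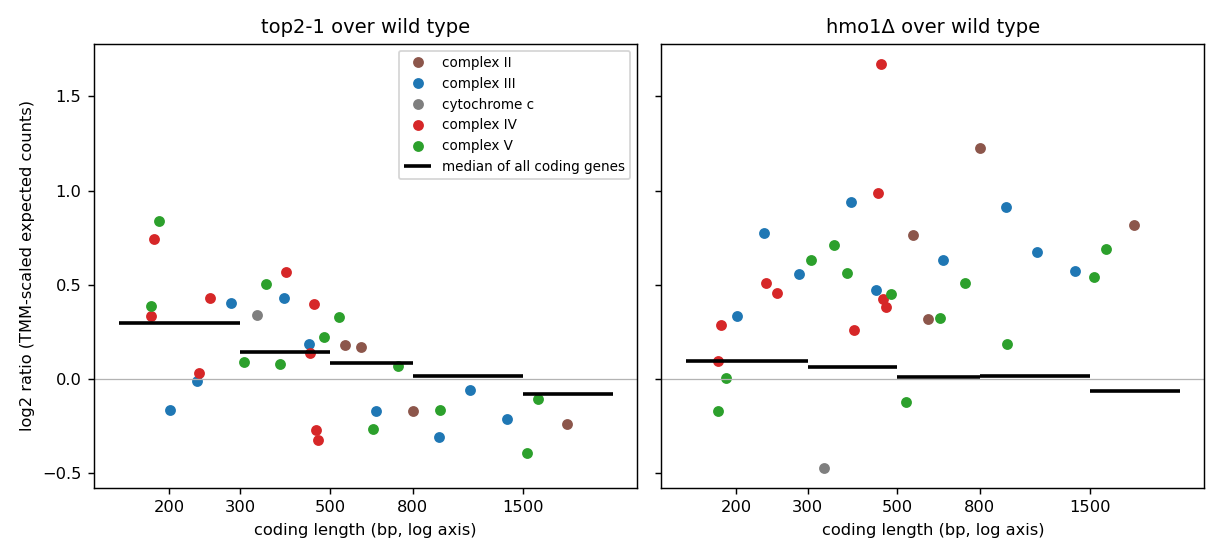
Log2 ratio of each member (points, coloured by complex) against its coding length in bp (log axis) for top2-1 (left) and hmo1Δ (right) over wild type, with black lines for the median of all coding genes in 5 length classes. In the left panel ATP15, 189 bp long, lies at 0.84 and SDH1, the longest at 1923 bp, at -0.24, while the lines go from 0.30 to -0.08; in the right panel most short and long members lie above the lines, with CYC1, ATP7, ATP15 and ATP18 below them.

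With both mutations, hmo1Δ;top2-1 over wild type, 13 members were at least 1.5-fold higher (12.6% of all genes), none was 1.5-fold lower (10.4%), 3 were 2-fold higher (4.67%) and none 2-fold lower (3.62%), 28 were above 0 (50.9%) and the median was 0.37 (all genes 0.01). Complex III had a median of 0.75, complex II of 0.40, complex V of 0.20 and complex IV of 0.09. QCR7 was highest at 1.07, followed by QCR10 at 1.05 and COX5B at 1.00, and COX4 was lowest at -0.45. Over all genes 764 were 1.5-fold higher and 631 lower with TMM, and 485 and 983 with TPM, in which ATP18 lay on the other side of the median gene. Of the 13 higher members with TMM, 12 were among the 21 members up to 500 bp and 1 among the 14 longer ones. Of all coding genes, 190 of 678 up to 500 bp and 446 of 4921 longer ones passed 1.5-fold. With TPM, 5 members were 1.5-fold higher and 2 lower. RSEM's effective length was 137 bp shorter than the gene in wild type and 121 bp in hmo1Δ;top2-1. The part of gene length in these ratios was not tested. All comparisons with wild type at 37 °C share that library.

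Wild type at 37 °C over 28 °C gave a median of -0.92 for the members (all genes -0.02), with 23 members 1.5-fold lower (28.7% of all genes). COX5B at 1.39 and SDH3 at 0.73 were 1.5-fold higher (26.9%) and were the only members above 0 (49.3%). By 2-fold, 15 were lower (17.8%) and 1 higher (14.4%). The sign depends on the scaling: the members' median was -0.017 with library totals and 1.46 with TPM, where the median of all genes was 0.88 and 1.90. Over all genes 1636 were 1.5-fold higher and 1749 lower with TMM, 3762 and 606 with library totals, and 5431 and 250 with TPM. Their median lay below that of all genes in each, and in TPM COX7, COX8, ATP7, ATP14, ATP17 and SDH4 lay on the other side of it. The catalytic ATP2 had 19013 counts at 28 °C and 3205 at 37 °C and was the lowest member at -1.84. These libraries differ in temperature and cell cycle stage, in total depth and in the share of coding RNA, which cannot be told apart.

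Other genes of respiration were set beside the members for hmo1Δ over wild type. The tricarboxylic acid cycle had 10 of 11 genes above 0, with 7 at least 1.5-fold higher and a median of 0.68; KGD2 and CIT1 had 1.01 and 0.97, and LSC2 had -0.37. The other electron entry enzymes had 6 of 6 above 0, led by GUT2, the mitochondrial glycerol phosphate dehydrogenase, at 2.41 and NDE2, an external NADH dehydrogenase, at 2.22. The 6 accessory and regulatory subunits had 5 above 0; COX26 had 1.98, STF1 and INH1, which bind or inhibit the ATP synthase, had 1.49 and 1.10, and ATP19 had -0.18. Genes of coenzyme Q synthesis had 8 of 10 above 0 with a median of 0.33, led by COQ4 at 0.96, and the ADP/ATP and phosphate carriers had 3 of 4 with 0.34.

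The factors that build the complexes varied by complex. Assembly and translation factors of complex III and cytochrome c had 3 of 12 above 0 with a median of -0.25, those of complex IV 15 of 32 with -0.01, those of complex V 8 of 12 with 0.11 and those of complex II 4 of 6 with 0.39. COA2 and COX19, which act in building complex IV, had 1.88 and 1.41, and COX17, a copper chaperone, had -0.95. Heme synthesis genes had 3 of 8 above 0 with a median of -0.04. Mitochondrial ribosomal proteins had 8 of 67 above 0 and a median of -0.34, with MRP2 at -0.95. They were picked by symbol alone (MRP, MRPL, MRPS or RSM followed by digits). This pick takes in MRP8, the highest of the list at 1.09. Transcription regulators of respiration had 10 of 12 above 0 with a median of 0.30: HAP2 was highest at 0.96, HAP4, the activating subunit, had 0.29, HAP1 had 0.37 and RTG3 had -0.10.

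In the second pair the medians were 0.12 for the tricarboxylic acid cycle (6 of 11 above 0), 0.13 for the other electron entry enzymes (3 of 6), -0.21 for both the complex III and the complex IV factors and -0.14 for mitochondrial ribosomal proteins (22 of 67). The accessory subunits had 0.59 (4 of 6), and complexes II and III, as above, 0.43 and 0.63. Complexes IV and V had 0.14 each, the transcription regulators 0.27 (10 of 12) and the carriers 0.24 (4 of 4). Coenzyme Q synthesis had 0.01 (5 of 10), against 0.33 in the first pair. The complex II factors had -0.24 (2 of 6), against 0.39 in the first pair. The complex V factors had 0.13 (8 of 12) and heme synthesis 0.00 (4 of 8). The mitochondrially encoded subunits had 0 to 52 counts each at 37 °C, and no comparison was drawn from them.

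Upstream neighbours of the members lay on both sides of the median gene. The nearest upstream coding neighbour passed the filter for 31 members. In hmo1Δ over wild type the 20 tandem ones (64.5%, all genes 48.15%) had a median of 0.05 (all genes 0.01). The 11 divergent ones (35.5%, all genes 51.85%) had -0.06 (all genes -0.03). Single neighbours ranged from -3.84 for YBL100W-B, upstream of ATP1, to 1.09 for MRP8, upstream of SDH3. YBL100W-B is a Ty retrotransposon frame that shares reads with other copies, so its value is uncertain. No coding gene of the reference annotation overlaps a member.

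Hmo1 peaks were about as common at the members as elsewhere. In each Hmo1 library 17 of 35 members (48.6%) had a peak within 500 bp upstream of the start codon, against 45.2% of all 6002 nuclear coding genes in the control-plasmid library and 41.4% in the TopA library. Peaks in both libraries were found at 13 members (31.2% of all genes) and in neither at 14 (44.6%). Complex IV had 6 and 7 of 9 genes with a peak, complex III 5 and 4 of 9, complex V 4 and 3 of 12 and complex II 1 and 2 of 4, and CYC1 had a peak in both. Upstream of COX5B a peak spanned chromosome IX 154345 to 155684 in the control library and 154382 to 156595 in the TopA library, with the whole window covered in both. The first peak ran into the gene and the second past its end. Their scores lay below the median peak score, at percentiles 29.4 in the control library and 46.8 in the TopA library. QCR7, QCR10, COX6 and ATP17, which were 1.5-fold higher without Hmo1 in both pairs, had no peak in either library, and SDH2 had one in the TopA library only. In hmo1Δ over wild type the median was 0.54 for members with a control-library peak and 0.45 for those without; for all genes it was 0.05 and -0.05.

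Few promoters held a called nucleosome, among the members as among all genes. Within 300 bp upstream of the start codon, no base lay under an H3 nucleosome for 34 of 35 members in wild type with control plasmid (89.7% of all genes), 30 in top2-1;top1Δ with control plasmid (80.8%), 33 in wild type with TopA (85.7%) and 34 in top2-1;top1Δ with TopA (88.5%). The mean cover was 0.0381%, 2.99%, 1.40% and 0.124%, against 2.49%, 5.85%, 3.64% and 3.43% for all genes. In top2-1;top1Δ with control plasmid the covered promoters were those of ATP5 at 46.0%, QCR7 and SDH4 at 23.7% each and, with less cover, ATP14 and QCR2. Without the 25% of positions with the lowest summit signal the mean of that library was 0.124%, and 3.28% for all genes. ATP1 had 38.7% and ATP2 10.3% in wild type with TopA, and 0% in the other libraries. ATP20 at 1.33% in wild type with control plasmid and ATP15 at 4.33% in top2-1;top1Δ with TopA were the remaining ones.

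Over the gene itself the mean cover of the members was 20.8%, 34.9%, 30.4% and 9.42% in the same order, against 28.9%, 32.4%, 34.3% and 14.7% for all genes. Among the complexes, complex II was covered most, with 32.6%, 53.7%, 55.2% and 16.3%. Complex IV had 12.9%, 19.8%, 23.1% and 0%. It was covered least except in wild type with TopA, where complex III had 21.3%. No base of the gene was covered for 17, 13, 14 and 26 members (21.7%, 17.8%, 15.7% and 54.4% of all genes). Short genes hold few nucleosomes: members up to 500 bp had 8.58% and longer ones 39.1% in wild type with control plasmid, and all genes of these lengths had 13.2% and 32.0%. The top2-1;top1Δ library with TopA held 10841 nucleosome positions against 21862 to 25035 in the others, spread unevenly from 0.502 per kb on chromosome XII to 2.71 on chromosome VI. Its lower cover cannot be told apart from this smaller number of calls.

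Top2 anchors met 11 of 35 members (31.4%), counting the gene and 500 bp upstream, against 42.9% of all coding genes. In the 500 bp upstream alone 9 members had one (25.6% of all genes), and 9 from clusters within 1 chromosome (37.7%). For genes up to 500 bp it was 8 of 21 members (38.1%) and 31.7% of all genes, and for longer ones 3 of 14 (21.4%) and 45.1%. COX13 had the most paired tags, 8, joining segments whose middles lay 1718 bp apart upstream of the gene. COX6 and COX7 had 3 and the rest 2, the smallest count deposited. Both segments overlapped a neighbouring gene for COX13 (IME4), COX6 (SMF2), COX7 (PET111), COX9 (IDP1) and ATP7 (PUT3). Only COR1, QCR7, QCR9, ATP20 and SDH1 had a segment over the member gene itself. For 9 of the 11 the partner segment lay on the same chromosome, with middles 1029 to 7554 bp apart. Those of QCR7 and SDH1 lay on chromosome XII at 460215 to 460383 and 460338 to 460491, between the ribosomal DNA genes RDN5-1 and RDN37-2. Anchors in these ribosomal repeats took part in 301 of the 382 deposited clusters that join different chromosomes.

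**Figure D5:**
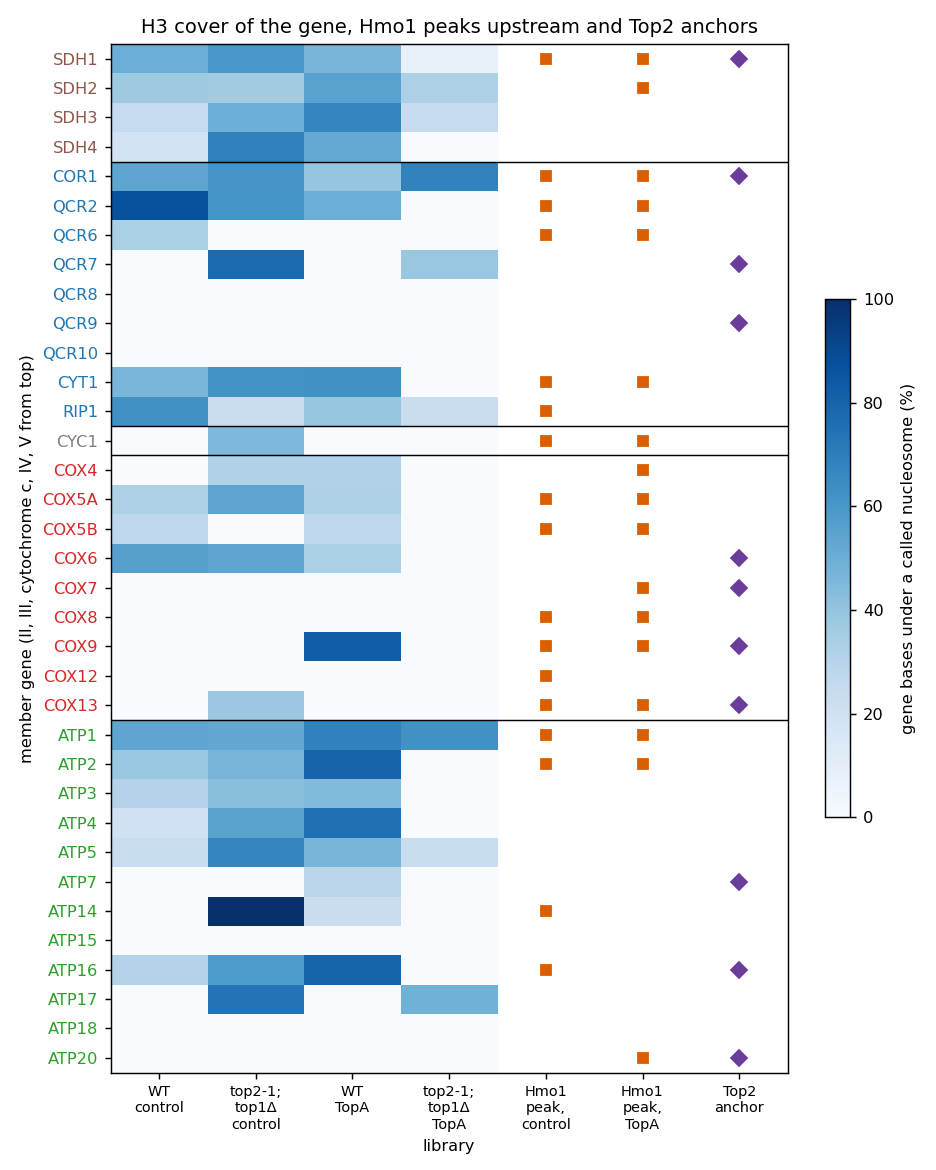
Percent of each member gene under called H3 nucleosomes (blue scale) in the 4 H3 libraries, with squares for a Hmo1 peak within 500 bp upstream and diamonds for a Top2 anchor. QCR8, QCR9, QCR10, COX7, COX8, COX12, ATP15, ATP18 and ATP20 hold no called nucleosome in any of the 4 libraries, and no complex IV gene holds one in top2-1;top1Δ with TopA.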

How the data were processed

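The RNA tables hold expected counts (estimated counts) and TPM that the authors made per gene, with RSEM after STAR on build R64 per the submitters' processing notes. Per the labels, the strand-specific libraries came from poly-A RNA after removal of ribosomal RNA (Ion Proton). Each deposited Hmo1 peak carries a score of unknown scale, and the deposited H3 lists give nucleosome positions of 148 bp with a summit signal per the file headers. The deposited ChIA-PET table gives a count of paired tags per cluster; its positions were read as R64, a build no label states for it. Which callers and filters were used the sources do not say.

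Expected counts were scaled with edgeR 4.0.16 (TMM over 5 libraries, R 4.3.3) and turned into log2 CPM with a prior count of 2; counts are printed rounded. A gene was kept if its counts averaged 20 or more (6085 genes). "Higher" or "lower" by 1.5-fold is a rule of size with no test, since each group held 1 library. Intervals on ratios and shares are exact (Clopper-Pearson) 95% binomial intervals and cover counting error only; PCR copies are not independent molecules. The scaling of counts into log2 ratios was tested on simulated counts, and the overlap of peaks, nucleosomes and anchors was not. TPM ratios used log2(TPM + 1), which understates changes of low genes. Gene names and positions came from the RefSeq table of R64; H3 cover was taken over the gene with its introns (QCR9, QCR10 and COX5B have one). Alternatives were other scalings (library totals, DESeq2 1.42.0 size factors), TPM, prior count, filters, size rule, windows and peak sets. Every member is named. From each other list up to 3 highest and 3 lowest genes in hmo1Δ over wild type could be named, with all paralogs, HAP4, HAP1 and the strain checks. Members and lists were chosen with earlier results of these data known. The 6 input samples were not used. Sequences of the members are not printed.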

Additional observations from a re-analysis of the deposited data

Results flagged for a closer look

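Some members moved one way in one genetic background and the opposite way in the other, with counting intervals on opposite sides of 0. Each contrast rests on 1 library a side, so the difference between backgrounds was not tested. For HMO1 deletion these were COX12, with a log2 ratio of 0.46 in the TOP2 background and -0.45 in top2-1, and COX13, with 0.26 and -0.60. For top2-1 these were COX5B, with 0.40 in the HMO1 background and -0.67 in hmo1Δ, COX12 with 0.43 and -0.48, COX13 with 0.57 and -0.29, and ATP16 with 0.22 and -0.27. COX12 and COX13 appear under both. The same 4 libraries enter both contrasts, so these double entries are not independent.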

How the results depend on the processing

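No paired analysis was possible because each group held 1 library. Without replicates the intervals leave out biological variation, and low counts (31 for QCR10 in wild type) limit single ratios. Of 223 alternative values for the main results, 181 kept within their limits and 42 did not. With library totals the members' medians were 0.26 (hmo1Δ over wild type) and -0.017 (37 °C over 28 °C). Members 1.5-fold higher then numbered 5 in hmo1Δ over wild type (1 lower), 5 in hmo1Δ;top2-1 over top2-1, 4 over hmo1Δ (1 lower), 7 at 37 °C over 28 °C (4 lower) and 2 in both deletion pairs. Of all 6085 genes, 597, 510, 866 and 3762 were 1.5-fold higher in these single comparisons, in the same order. Lower were 1625, 843, 278 and 606. With TPM the medians were 0.19 and 1.46, the latter reversed, and COX7 turned to 0.17 at 37 °C over 28 °C once the all-gene median was set to that of TMM; members higher and lower were 5 and 2 (hmo1Δ), 5 and 2 (hmo1Δ;top2-1 over wild type), 5 and 4 (over top2-1), with 1 lower over hmo1Δ, 33 and 0 at 37 °C over 28 °C, and 2 higher in both deletion pairs. With TPM, of all 6085 genes, 506 were higher and 1771 lower in hmo1Δ. For hmo1Δ;top2-1 the numbers were 485 and 983 over wild type, 430 and 911 over top2-1, and 676 and 285 over hmo1Δ. At 37 °C over 28 °C they were 5431 and 250. Both library totals and TPM shift the median of all genes, and the cause was not tested. With that shift removed, a check added after seeing the data, 13 members were 1.5-fold higher in hmo1Δ with either; library totals left no value outside its limits, and TPM gave 6 higher and 3 lower over top2-1, 1 higher over hmo1Δ, a median of -0.46 at 37 °C over 28 °C and 3 in both deletion pairs. With the shift removed, 1002 of all 6085 genes were 1.5-fold higher in hmo1Δ with library totals and 964 with TPM. TPM then gave 626 genes higher and 639 lower over top2-1, and 388 higher over hmo1Δ. The share of all genes higher in both deletion pairs is not given for these alternatives, so the members' counts there cannot be set against it. At a mean of 100 counts, 1 member stayed higher in top2-1 and 1 in hmo1Δ;top2-1 over hmo1Δ, since COX7 did not pass. Of all 5458 genes at that mean, 244 and 315 were higher. With a 2-fold rule the numbers higher were 2 (hmo1Δ), 0 (top2-1), 3 (hmo1Δ;top2-1 over wild type), 1 with 0 lower (over top2-1), 0 with 0 lower (over hmo1Δ), 1 with 15 lower (37 °C over 28 °C) and 0 in both deletion pairs. With peaks at or above the median score, 8 and 11 members kept a Hmo1 peak (32.7% and 28.5% of all genes), and with more tags than the smallest count 3 met a Top2 anchor (11.8%). The mean H3 cover of promoters in top2-1;top1Δ with control plasmid went from 2.99% to 0.124% without the weakest 25% of positions. DESeq2 size factors, coding genes only, the prior count, no filter and the window choices left none outside. TMM over the 37 °C libraries gives no value for 37 °C over 28 °C. The CCAAT motif count and its window were not run.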
